A study of Danio rerio with 6 samples.

Results

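The hnRNP genes and their close relatives were followed in zebrafish larvae that carry mutations in an hnRNP gene pair. A member was any gene of the RefSeq zebrafish table whose symbol begins with hnrnp, together with named relatives, among them syncrip, syncripl, rbmx, ewsr1a, ewsr1b, taf15, tardbpa (also known as tardbp), raly and the ptbp and pcbp genes ptbp1a, ptbp1b, ptbp2b, ptbp3, pcbp2, pcbp3 and pcbp4. The table holds 40 such genes. Of these, 33 paired with a row among the 15455 RefSeq transcripts counted in the study, each with 1 row, and all 33 passed the filter on low counts. No row paired with the other 7 (hnrnpul1l, hnrnpua, hnrnpa1a, hnrnpa3, hnrnpdl, hnrnpll and ptbp3), which were therefore not analysed here.

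The series holds 6 libraries of polyadenylated RNA from larvae at 72 hpf, each made from a pool of 8 animals whose tail had been removed for genotyping. There were 3 wild-type pools and 3 pools of double homozygous hnrnpul1/1l mutants. The study made the alleles by CRISPR and names hnrnpul1 ca54 and hnrnpul1l ca52 as the alleles used unless stated otherwise. It describes the first as a frameshift and the second as the loss of an exon from the mRNA that shifts the frame. The study describes the mutants as maternal zygotic for hnrnpul1l and zygotic for hnrnpul1. It gives the wild types once as siblings and once as offspring of hnrnpul1l heterozygotes. Maternal zygotic mutants have mothers homozygous for the hnrnpul1l mutation, which wild types cannot have. The parents therefore differed, and this difference cannot be told apart from the genotype. The labels name no treatment.

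Heterogeneous nuclear ribonucleoproteins, or hnRNPs, coat pre-mRNA as it is made and take part in its splicing, export, stability and translation. Most bind RNA through RRM or KH domains. The U class differs in carrying a SAP domain, which binds DNA, and a SPRY domain, which binds proteins. Many members regulate the splicing or decay of their own transcripts and of related ones. The nervous system is rich in several of them, and in humans TDP-43 is known for its part in motor neuron disease.

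Values are given as CPM, the estimated count of a transcript as a share of its library, times 1000000, after scaling with edgeR's TMM factors. CPM is not scaled for transcript length, so levels are compared between pools and not between genes. The libraries held 40891319 to 62580211 counts, and 1 CPM stands for 40.9 to 62.6 counts before scaling. Member rows averaged from 2.61 CPM (pcbp3) to 1375 CPM (hnrnpa0a), and their summed share of a library was 1.097% to 1.309% in wild types and 0.794% to 1.397% in mutants. The estimates had a fractional part for 5 member rows (hnrnpa0a, hnrnpa0b, hnrnph1, hnrnph1l and pcbp4), as happens where reads are divided between transcripts, and were whole in every library for the other 28. RefSeq now lists between 1 and 51 transcripts per member gene, and the single row of each gene does not separate its splice forms. The study lists more retention of an intron in mutants for hnrnpd and for hnrnpa1a, which has no row here. Such changes cannot be seen in these rows.

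The mutated gene was examined first. For the hnrnpul1 transcript NM_213271 the wild-type pools held 127, 122 and 118 CPM, and mutant pools 1 to 3 held 47.7, 45.7 and 22.1 CPM. The mutant pools were thus at 38.9%, 37.3% and 18.1% of the wild-type mean, and the groups lay far apart. The study also reports hnrnpul1 as lower in mutants, in part from the sequencing of these same pools. The means were 122 ± 4.48 CPM in wild types and 38.5 ± 14.2 CPM in mutants (SD, n = 3 each), which puts the mutant mean at 31.4% of the wild type. The log2 fold change was -1.67 (standard error 0.30, 95% interval -2.37 to -0.97, edgeR adjusted p = 0.328). By its unadjusted p of 6.04e-04 it stood at place 24 among the 13553 transcripts tested. With 3 pools against 3, the two-sided exact permutation p was 0.1, which is the lowest that can be reached. DESeq2 called hnrnpul1, with an adjusted p of 1.79e-04, and over all alternatives its adjusted p ran from 1.79e-04 to 0.999. Counts were made against the reference transcript, and how many reads of misspliced or mutated transcripts it missed was not tested.

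Only 1 other U class gene had a row. hnrnpub encodes a copy of HNRNPU, known in mammals for binding chromatin-associated RNA. Its wild-type pools held 636, 685 and 489 CPM and its mutant pools 894, 1095 and 440 CPM. Mutant pools 1 and 2 lay above every wild-type pool and mutant pool 3 below every one, so the groups overlapped. The log2 fold change was 0.43 (standard error 0.34, 95% interval -0.35 to 1.2), with an unadjusted p of 0.242. It moved to 0.72 without mutant replicate 3 (unadjusted p = 0.0139 in edgeR) and to 0.17 without mutant replicate 2. The interval holds both no difference and a 2-fold higher level.

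Among all 33 member rows, none was called at an adjusted p below 0.05 in edgeR, and none of the 13553 transcripts tested was (0%). At an unadjusted p below 0.05 there were 3 member rows (9.09%), where 8.79% of all transcripts tested passed. All 3 were lower in mutants, hnrnpul1, pcbp4 and hnrnpk (9.09% lower and 0% higher, against a background of 4.61% and 4.18%). Without hnrnpul1, the mutated gene, 2 of 32 rows passed (6.25%). limma-voom also called no member, and DESeq2 called hnrnpul1 alone of the members, among 196 calls in all. Every mutant pool lay above, or every one below, all wild-type pools for 5 member rows (15.2%), compared with 16.8% of all transcripts. Of these, 4 were lower (hnrnpul1, pcbp4, hnrnpk and hnrnph3, or 12.1% against 9.08%) and 1 was higher (ptbp1a, or 3.03% against 7.71%). Without hnrnpul1, 4 of 32 rows were separated (12.5%). With all 6 pools and TMM scaling the shares over both directions together are near the background. The shares by direction rest on at most 4 rows each. The shares moved with single pools and with the scaling. Without mutant replicate 3 there were 7 member rows at an unadjusted p below 0.05 (4 lower and 3 higher), or 21.2%, where 10.7% of all transcripts passed. Without mutant replicate 2 there were 5, all lower (15.2%, against 12.4% of all transcripts), and without wild-type replicate 2 there were 2 (6.06%, against 4.44%). Scaling by total counts gave 7 rows, all lower (21.2%, against 10.1%).

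The 32 members other than hnrnpul1 had a median log2 fold change of -0.11, beside -0.01 over all transcripts tested. There were 19 with a value below 0 and 13 above, and for 28 of the 32 the estimate was within 1.5-fold (87.5%, against 70.7% of all transcripts). These shares are not of equal precision, since the median standard error was 0.27 for the 32 members and 0.38 over all transcripts. The 95% interval held 0 for 30 of the 32 members and lay wholly within a 2-fold change either way for 24. Leaving out 0 amounts to an unadjusted p below 0.05 in edgeR, met by 6.25% of the 32 and 8.79% of all transcripts. The count within 2-fold depends on the standard errors and was not made over all transcripts. Over all 33 rows the median was -0.11. It was -0.24 under scaling by total counts, where the median of all transcripts was itself -0.13. Without mutant replicate 2 it was -0.25, beside 0.004 over all transcripts, and without mutant replicate 3 it turned to 0.04, beside -0.03.

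**Figure D1:**
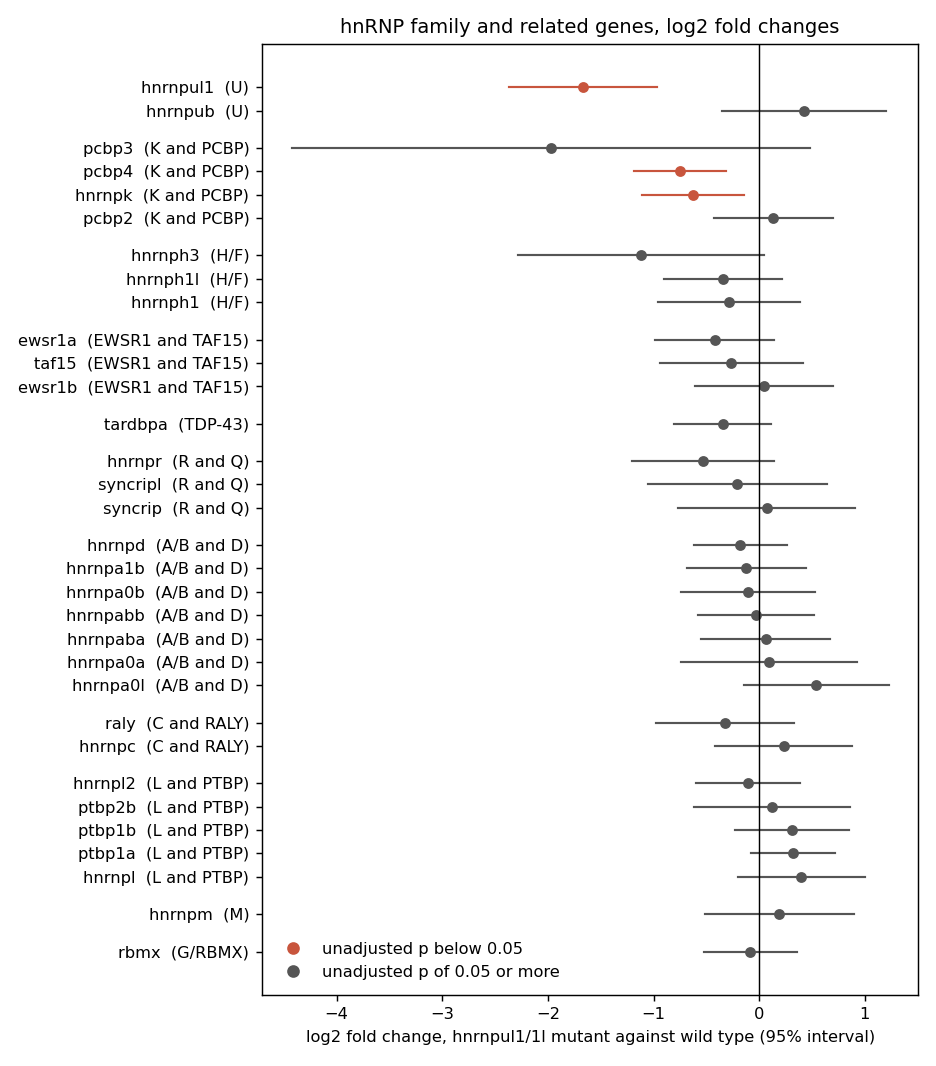
Log2 fold change of 32 member rows in hnrnpul1/1l mutants against wild types (points) with its 95% interval from edgeR (lines), grouped by hnRNP class. hnrnpul1 at -1.67, pcbp4 at -0.75 and hnrnpk at -0.62 are the rows with an unadjusted p below 0.05, and the intervals of the other 29 rows hold 0.

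The KH domain genes held the lowest unadjusted p-values after hnrnpul1. Their proteins bind C-rich RNA, hnrnpk in transcription and splicing, and the pcbp genes, for poly(C)-binding proteins, mainly in mRNA stability and translation. Levels of pcbp4 were 101, 119 and 126 CPM in wild types, against 67.4, 75.1 and 63.2 CPM in mutants. The groups did not overlap, and both were tight, with coefficients of variation of 11.1% and 8.78%. The log2 fold change was -0.75 (standard error 0.19, 95% interval -1.18 to -0.32, unadjusted p = 0.00399, edgeR adjusted p = 0.406). In DESeq2 the adjusted p was 0.0507, just above the threshold. Leaving out any 1 library kept the log2 fold change between -0.84 and -0.68. The counts of this row were fractional in all 6 libraries, so they rest in part on how reads were divided.

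For hnrnpk, wild types held 135, 185 and 150 CPM, against 101, 117 and 87.2 CPM in mutants. Again all mutant pools lay below all wild-type pools. The study lists hnrnpk as lower in mutants from RPKM of these same pools, so its listing is not a second measurement. Its methods name no adjustment for the number of genes compared. The means were 157 ± 25.5 and 102 ± 14.7 CPM (SD, n = 3 each). This gave a log2 fold change of -0.62 (standard error 0.21, 95% interval -1.11 to -0.14, unadjusted p = 0.0180, edgeR adjusted p = 0.479). Leaving out each library in turn gave -0.72 to -0.49, with an unadjusted p of 0.0799 without wild-type replicate 2. The remaining 2 KH genes did not separate the genotypes. pcbp2 had 304, 397 and 292 CPM in wild types and 391, 430 and 268 CPM in mutants, a log2 fold change of 0.13 (standard error 0.24). pcbp3, the least abundant member, had 2.17, 1.13 and 9.19 CPM in wild types and 0.790, 0.268 and 2.11 CPM in mutants. Its log2 fold change of -1.97 (standard error 1.06, unadjusted p = 0.1 in edgeR) rested on 10 to 615 counts per library and became -0.64 without wild-type replicate 3.

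The H/F class binds G-rich runs in pre-mRNA. All 3 of its rows were lower on average in mutants, without an unadjusted p below 0.05 in the main edgeR fit. hnrnph3 held 5.54, 7.00 and 4.85 CPM in wild types, against 3.80, 2.55 and 1.66 CPM in mutants, with no overlap. The log2 fold change was -1.12 (standard error 0.50, 95% interval -2.28 to 0.04, unadjusted p = 0.0572 in edgeR), from 89 to 373 counts per library. In other edgeR fits its unadjusted p ran from 0.0371 (total counts) to 0.173 (without wild-type replicate 2). DESeq2 gave an unadjusted p of 0.049. RefSeq lists 18 transcripts for this gene, of which the counts hold 1. The row of hnrnph1l overlapped between the genotypes, at 167, 226 and 178 CPM in wild types and 165, 175 and 109 CPM in mutants (log2 fold change -0.34, standard error 0.24). For its relative hnrnph1 the value was -0.29 (standard error 0.29).

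The polypyrimidine tract binding proteins repress exons beside pyrimidine-rich tracts, and in mammals PTBP1 gives way to PTBP2 as neurons form. ptbp1a was the only member higher in every mutant pool than in any wild-type pool, with 90.0, 96.0 and 91.9 CPM in mutants and 74.8, 69.4 and 78.3 CPM in wild types. The difference was small, a log2 fold change of 0.32 (standard error 0.17, 95% interval -0.07 to 0.72, unadjusted p = 0.0979 in edgeR), and this gene is named because it completes the count of separated members. Its copy ptbp1b had 49.6, 56.0 and 74.0 CPM in wild types and 89.8, 68.8 and 64.5 CPM in mutants. The value of 0.31 (standard error 0.23) was alike in size, but the pools overlapped. ptbp2b, a copy of the neural form, was at 0.12 (standard error 0.32). In the same class, hnrnpl, which binds CA-rich RNA, was at 0.40 (standard error 0.26) and hnrnpl2 at -0.11 (standard error 0.21).

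**Figure D2:**
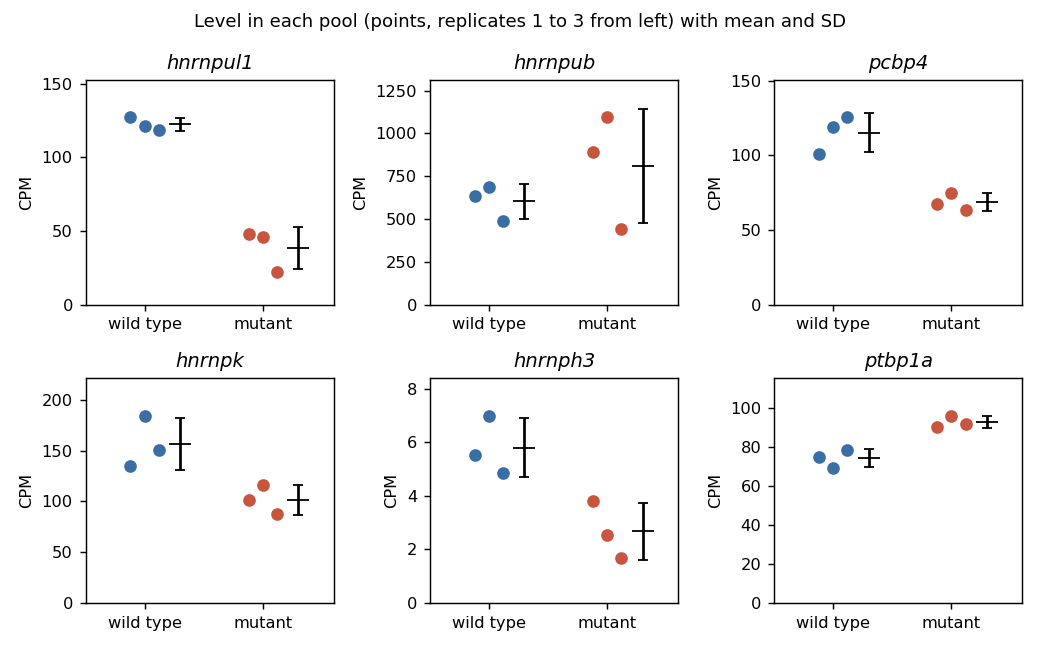
CPM of 6 members in each wild-type and mutant pool (points) with the group mean and SD (bars, n = 3), each axis starting at 0. The pools of hnrnpul1, pcbp4, hnrnpk and hnrnph3 are all lower in mutants and those of ptbp1a all higher, while mutant pool 3 of hnrnpub, at 440 CPM, lies below the wild types and the other mutant pools above them.

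The A/B and D class supplies the core proteins of the hnRNP particle, and hnrnpd, the copy of AUF1, binds AU-rich elements in unstable mRNAs. The 7 rows ran from a log2 fold change of -0.18 (hnrnpd) to 0.54 (hnrnpa0l), with 4 below 0 and 3 above and no unadjusted p under 0.106. Of the 5 member rows with the most counts, 4 were of this class. hnrnpa0l held 959, 1164 and 845 CPM in wild types, against 1486, 1925 and 904 CPM in mutants. Mutant pools 1 and 2 lay above all wild types and mutant pool 3 among them (log2 fold change 0.54, standard error 0.30), and without mutant replicate 3 the value was 0.78 (unadjusted p = 0.0110 in edgeR). hnrnpa0a held 1492, 1485 and 1018 CPM in wild types and 1439, 2059 and 758 CPM in mutants. hnrnpa0b held 1174, 1493 and 1142 CPM in wild types and 1185, 1554 and 792 CPM in mutants. The mutant pools of both spanned the whole wild-type range, and the log2 fold changes were 0.09 (standard error 0.36) and -0.11 (standard error 0.28). hnrnpaba held 1085, 1433 and 1197 CPM in wild types and 1320, 1669 and 891 CPM in mutants, which gave 0.06 (standard error 0.26). The other two rows of the class were near 0, hnrnpa1b at -0.12 (standard error 0.24) and hnrnpabb at -0.03 (standard error 0.24).

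The remaining classes showed no row that separated the genotypes. In the R and Q class, which acts in mRNA transport and stability in neurons, the fifth most counted row, syncrip, held 795, 743 and 613 CPM in wild types, against 597, 1216 and 446 CPM in mutants. Mutant pool 2 was the highest and mutant pool 3 the lowest of all 6, and the log2 fold change was 0.07 (standard error 0.36). hnrnpr was at -0.53 (standard error 0.29) and syncripl at -0.21 (standard error 0.37). ewsr1a, ewsr1b and taf15 encode proteins that bind RNA and act in transcription. They were at -0.42 (standard error 0.24), 0.05 (standard error 0.28) and -0.26 (standard error 0.29). tardbpa, a copy of the gene for TDP-43, which limits its own mRNA in mammals, was at -0.35 (standard error 0.20). hnrnpc, which binds uridine tracts, was at 0.23 (standard error 0.28) and its relative raly at -0.32 (standard error 0.28). The GU-binding hnrnpm was at 0.19 (standard error 0.31), and rbmx, also known as hnRNP G, at -0.08 (standard error 0.19).

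The members varied together from pool to pool. Of the 32 members other than hnrnpul1, 23 (71.9%) had their lowest level of the 6 pools in mutant pool 3, where 17.8% of all transcripts tested did. The highest level was in mutant pool 2 for 14 members (43.8%, against 22.4% of all transcripts) and in wild-type pool 2 for 11 (34.4%, against 15.6%). The median over the 32, on the log2(CPM + 0.5) scale against each gene's wild-type mean, was -0.10, 0.22 and -0.11 in the wild-type pools and -0.03, 0.15 and -0.48 in the mutant pools. The median of all transcripts stayed between -0.06 and 0.01 in every pool. TMM scaling itself holds most transcripts near 0, so this median is no independent check. Summed over the 32 members, wild-type pools held 10879, 12703 and 9923 CPM and mutant pools 12104, 15268 and 7804 CPM. The mutant sums reached beyond the wild-type range on both sides, and the group means differed by 0.02 on the log2 scale. The spread was the wider among mutants for 23 of the 32 members, and the same count over all transcripts was not made. The median coefficient of variation over the 32 was 16.4% in wild types and 27.9% in mutants. Over all transcripts it was also higher in mutants, at 25.47% in wild types and 33.05% in mutants. On the same scale hnrnpul1 itself lay at -1.35, -1.41 and -2.44 in the mutant pools, so that its lowest pool was also the pool in which the other members were lowest.

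**Figure D3:**
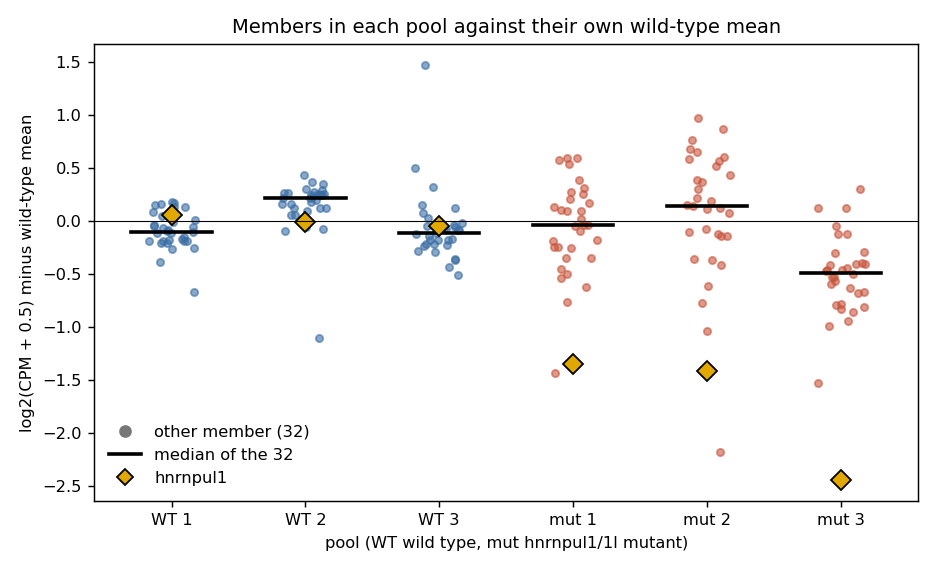
Each member in each pool as log2(CPM + 0.5) minus its own wild-type mean, with circles for the 32 other members, a bar for their median and a diamond for hnrnpul1. The median of the other members is lowest in mutant pool 3 (-0.48) and highest in wild-type pool 2 (0.22) and mutant pool 2 (0.15), and hnrnpul1 lies at -1.35 or lower in all 3 mutant pools.

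Marker genes of the tissues in these larvae also differed between pools. All listed tissues were detected, the exocrine pancreas only at 3.80 to 12.4 CPM summed over its list, with 2 of its rows at 0 in all libraries. The 13 photoreceptor rows were all lower on average in mutants and 11 of them were separated, with summed levels of 6287 to 8251 CPM in wild types and 1091 to 3955 CPM in mutants. The skin list was higher on average in mutants for 11 of 12 rows, of which 4 were separated. Over all transcripts tested, 9.08% were separated and lower and 7.71% separated and higher. The skin sums were 3827 to 10174 CPM in wild types and 11460 to 22102 CPM in mutants. Much of them came from krt4, with 2775 to 7040 CPM in wild types and 8784 to 15458 CPM in mutants. Across the mutant pools, the neural progenitor list had a median of 0.36, 0.70 and -0.40 on the log2 scale above, the neuron list -0.65, 0.09 and -0.53, and the skin list 1.02, 0.60 and 1.88. Mutant pool 3 was thus the lowest of the mutant pools for neural progenitors and hnRNP members and the highest for skin. In wild-type pools 1 to 3 the progenitor list was at 0.13, 0.13 and -0.30 and the members at -0.10, 0.22 and -0.11, so they parted in pool 1. Other lists moved too. Red blood cells had 4 of 8 rows separated and higher, and mitosis and S phase 6 of 17, with 0 separated and lower in either. The liver and yolk list was also highest in mutant pool 3, at 0.67. Among the mutant pools, pool 3 was the highest for photoreceptors too (-0.94) and the lowest for mitosis and S phase (0.08). The part of these markers in the member values was not tested, and in pooled larvae fewer cells of a type cannot be told apart from less RNA per cell.

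Ratios of related genes within a pool remove what both share in that pool. For 8 such pairs, chosen after the counts were seen, the log2 ratio of CPM + 0.5 is given by pool. It differs between pairs with transcript length and is read here only between pools. The ratio of hnrnpul1 to hnrnpub was -2.32, -2.49 and -2.04 in wild types and -4.21, -4.57 and -4.28 in mutants, a difference of -2.07 with no overlap. The ratio of ewsr1a to ewsr1b was 1.373, 1.489 and 1.367 in wild types and 1.106, 0.749 and 1.104 in mutants, a difference of -0.42. That of hnrnpl to hnrnpl2 was 1.59, 1.28 and 1.09 in wild types and 1.84, 1.93 and 1.65 in mutants, a difference of 0.49. The exact two-sided permutation p was 0.1 for each of these 3, the lowest that can be reached, and 0.267 after adjustment over the 8 pairs. None passed, and with this number of pools none could. Because the pairs were chosen with the counts known, these p-values do not serve as tests. The first ratio holds the lower hnrnpul1 level already given. How often other gene pairs separate was not examined. The groups of the other 5 pairs overlapped, with differences between 0.004 (ptbp1a to ptbp1b) and 0.15 (hnrnpa0a to hnrnpa0b). In the order of genes along the GRCz12tu assembly, hnrnpl and ewsr1b share a chromosome with hnrnpul1l, with 438 and 724 coding genes between, and no member shares that of hnrnpul1.

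**Figure D4:**
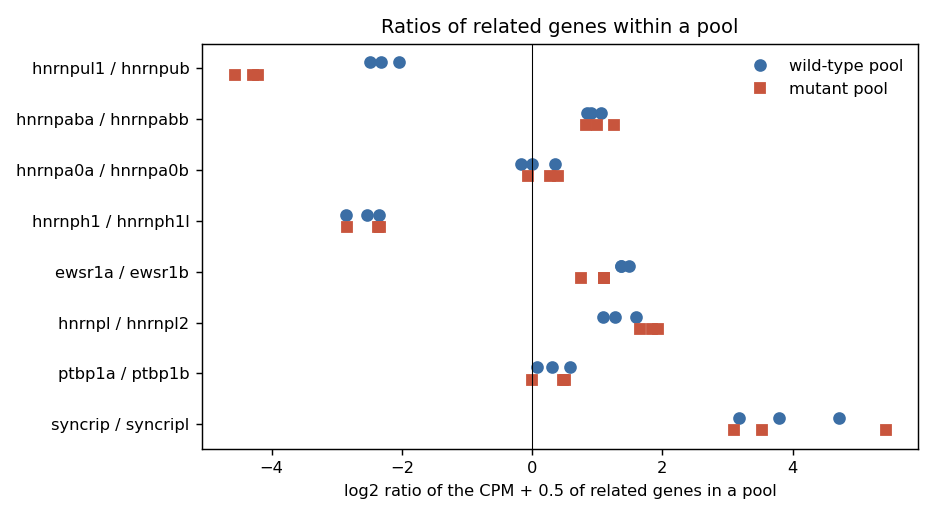
Log2 ratio of the levels (CPM + 0.5) of 8 pairs of related genes in each pool, with circles for wild types and squares for mutants. The groups do not overlap for hnrnpul1 to hnrnpub, ewsr1a to ewsr1b and hnrnpl to hnrnpl2, while the 5 other pairs overlap.

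Other genes of the pathway came from 3 lists. The list of splicing regulators outside the hnRNP rule had 58 rows tested, with a median log2 fold change of -0.01. At an unadjusted p below 0.05 in edgeR, 3 of the 58 were lower and 1 higher in mutants. Over all transcripts tested, 4.61% were lower and 4.18% higher at that threshold, so the list does not stand out. None of its rows was called, and the 4 rows are given by rule. The branch point binding gene sf1 was at 183 ± 30.7 CPM in wild types and 124 ± 19.7 CPM in mutants (SD, n = 3 each), or -0.56 as a log2 fold change (standard error 0.22). For tra2b, which binds exonic enhancers, the levels were 63.4 ± 7.01 and 40.9 ± 10.8 CPM (SD, n = 3 each), or -0.63 (standard error 0.25). celf5a was at 24.1 ± 2.08 and 12.6 ± 6.59 CPM (SD, n = 3 each), or -0.93 (standard error 0.40). The row of ybx1, an mRNA packaging gene, counted above as higher (NM_001126457) held 925, 834 and 759 CPM in wild types and 1091, 2216 and 1050 CPM in mutants, with mutant pool 2 far above the rest. The other ybx1 row was at 0.11 (standard error 0.22). In mutant pool 3 this list had a median of -0.29 on the log2 scale and in mutant pool 2 of 0.19.

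A further list held genes whose proteins are linked to HNRNPUL1 in human cells, among them the mRNA export receptor NXF1 and the MRE11-RAD50-NBN complex of DNA repair. This list gave 7 rows tested, none of them for NXF1, and of the complex only nbn was tested. None of the 7 had an unadjusted p below 0.05. The median log2 fold change was 0.23, with brd7 at 0.34 (standard error 0.28). The last list covered the arginine methyltransferases that modify hnRNPs and the carriers that bring them into the nucleus. Of its 30 genes 22 had a row, and the carriers tnpo1 and tnpo2 were among those without. None of the 22 rows had an unadjusted p below 0.05. With 11 rows below 0 and 11 above, its median was 0.02.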

How the data were processed

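RNA of 3 wild-type and 3 mutant pools was sequenced by the study as paired-end reads from strand-specific libraries. The authors estimated transcript abundance with kallisto and deposited an estimated count per library on 15455 RefSeq transcripts, without scaling to depth or length. The submitters' processing notes name kallisto 0.42.4, bcl2fastq 2.20.0.422 and danRer10, while the RefSeq release was not given in the sources used here. RPKM values, on which the published expression analysis ran, were not used.

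Accessions were paired with symbols through a RefSeq table of the GRCz12tu assembly (14740 rows paired), which served for names and gene order only. No sequences are shown. In each library 15.8% to 18.3% of values were fractional, and all were rounded. Counts were fitted with edgeR 4.0.16 in R 4.3.3 (filterByExpr, TMM with factors of 0.913 to 1.09, quasi-likelihood test of genotype, Benjamini-Hochberg over 13553 transcripts). A standard error is the log2 fold change divided by the square root of F, and intervals use the degrees of freedom of the test. Nothing says whether the pools came from separate clutches, so p-values set the genotype difference against the variation between these pools only. No pair of libraries held identical values.

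By rule, values by pool are given for U class rows, rows at an unadjusted p below 0.05, separated rows with a change of at least 1.5-fold, and the 5 rows with the largest mean CPM. The pool values of pcbp2, pcbp3, hnrnph1l, ptbp1a and ptbp1b were added after they were seen, and other members are named to account for the rows. A member that is part of the counts and medians is not reported here by name. Members and lists were chosen with earlier results of these data known. Alternatives were RLE factors, total counts, DESeq2 1.42.0, limma-voom (limma 3.58.1), no filter, sums per gene, a mean CPM minimum of 5, a replicate block and each library left out.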

Additional observations from a re-analysis of the deposited data

How the results depend on the processing

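Under all 14 alternatives hnrnpul1, hnrnpub, pcbp4, hnrnpk, hnrnph3 (13, since its level is below the mean CPM of 5), hnrnpa0l and ptbp1a kept the direction of their log2 fold changes. DESeq2 called 196 transcripts, 1 of them a member, hnrnpul1 at -1.655. Scaling by total counts gave 7 members at an unadjusted p below 0.05 (21.2%, against 10.1% of all transcripts) and 10 with separated groups (30.3%, against 18.6%), and turned hnrnpa0a to -0.046, hnrnpaba to -0.073 and syncrip to -0.071. Under limma-voom hnrnpa0a was at -0.004 and syncrip at -0.058. With each library left out in turn, 0 to 1 transcripts were called, 2 to 7 members had an unadjusted p below 0.05 (6.06% to 21.2%, against 4.44% to 12.4% of all transcripts) and 6 to 12 had separated groups (18.2% to 36.4%, against 21.7% to 32%), where fewer pools separate more easily by construction. The log2 fold change then ran from -0.249 to 0.391 for hnrnpa0a, -0.331 to 0.105 for hnrnpa0b, -0.134 to 0.266 for hnrnpaba and -0.426 to 0.333 for syncrip, with both ends set by mutant replicates 2 and 3. That of hnrnpul1 ran from -1.841 to -1.395.

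Pools with the same number did not deviate together in every case (correlations of -0.091, 0.131 and 0.383 across transcripts), so the numbers were not taken to pair them. With the replicate block, 5 members had an unadjusted p below 0.05 (15.2%, against 10% of all transcripts), hnrnpa0a was at -0.003 and syncrip at -0.058.

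The rows with the fewest counts were pcbp3, with 10 to 615 per library, and hnrnph3, with 89 to 373. How much of the error is counting error was not tested.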
